A study of Mus musculus with 14 samples.

Results

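The comparison described here asks how far the response of mouse cortical microglia to ischaemia and reperfusion (I/R) depended on Toll-like receptor 4 (TLR4). It was taken over all 14 arrays of the study as 1 quantity per gene, the I/R minus sham change in wild type minus the same change in TLR4-/- mice, and this difference is called the interaction below. A positive interaction means that the value went up more, or down less, in wild type, and a negative one that it went up more, or down less, in TLR4-/-. Of 35556 rows in the deposited table, 21789 carried exactly 1 gene symbol, and the row of highest mean was kept for each symbol, which gave 19938 genes.

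TLR4 is the receptor through which microglia and macrophages sense lipopolysaccharide and molecules set free by damaged tissue. It signals through the adaptors MyD88 and TIRAP toward NF-kB and inflammatory cytokines, and through TRIF and TRAM toward interferon regulatory factors and type I interferon. Interferon in turn acts through its own receptor to switch on a large family of antiviral genes. Microglia that respond to brain injury can also divide, lower the genes of their resting state and raise genes for lipid handling, phagocytosis and matrix.

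The mice were male, 12 to 14 weeks old and labelled C57BL/6J. Wild-type mice gave 4 arrays (A to D) after 15 min of artery occlusion with 72 h of reperfusion and another 4 (A to D) after a sham operation. TLR4-/- mice gave 3 arrays of each kind, lettered B, C and D for I/R and A, B and D for sham. The sample titles call the I/R arrays IPC, a term that the labels do not explain, while the treatment label reads ischemia/reperfusion. RNA came from microglia sorted ex vivo from the ipsilateral cortex and was hybridised to Affymetrix Mouse Gene 1.0 ST arrays. The sources used here do not give how the TLR4-/- allele was made, by which markers the cells were sorted or whether each array was a separate animal. P-values therefore refer to the spread among these arrays, part of which may be technical. The labels name no cell type to which the deletion is limited, and microglia are 1 of several cell types that can carry the receptor.

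Values are log2 signals, in which a difference of 1 is a factor of 2. The array medians lay between 4.93 and 5.12. As a gauge of background, the 1015 olfactory receptor genes had a median of 2.95 and a 95th percentile of 4.67, and 12509 genes (62.7%) had a mean above that percentile. Arrays of the same group correlated at 0.981 to 0.993 across genes. Wild-type sham array C correlated less with its own group (0.981 to 0.986) than with the TLR4-/- sham arrays (0.987 to 0.992), and TLR4-/- I/R array D less with its own group (0.985 to 0.990) than with the wild-type I/R arrays (0.990 to 0.992). Results that rest on these arrays are therefore given with and without them. Markers that define microglia averaged 11.03 to 11.13 on the sham arrays of both genotypes and 10.68 to 10.88 on the I/R arrays. Mean signals of the neutrophil, T and NK cell, neuron and endothelial lists were 3.78 to 4.80, close to the background level, and those of the astrocyte, oligodendrocyte and B cell lists were 4.76 to 5.97.

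The Tlr4 row itself was not at background on the arrays labelled TLR4-/-. It read 8.92, 8.86, 8.75 and 8.57 on the wild-type sham arrays A to D and 8.47, 8.15 and 8.33 on the TLR4-/- sham arrays. After I/R it read 8.23, 8.48, 8.14 and 8.33 in wild type and 8.40, 8.04 and 7.62 in TLR4-/-. The sham groups did not overlap, the I/R groups did, and neither genotype difference was called (−0.46 after sham, adjusted p = 0.92, and −0.28 after I/R, adjusted p = 0.63). Which part of the gene the probes of this row cover relative to the deletion is not given, so Tlr4 cannot check the genotype labels, and TLR4-/- below means the group that carries this label. The interaction of Tlr4 was −0.18 with a 95% interval of −0.65 to 0.29. Mid1, a microtubule-associated ubiquitin ligase, did separate the labels: it read 7.01 to 7.17 on wild-type sham, 7.08 to 7.32 on wild-type I/R, 5.87 to 6.42 on TLR4-/- sham and 6.25 to 6.30 on TLR4-/- I/R arrays. It was the 1 gene called between genotypes after sham (0.00502% of genes tested; −0.99, adjusted p = 0.011) and 1 of 4 called after I/R (0.0201%). The other genes called after I/R were Mns1 (−1.13), Phyhipl (0.96) and Tnfsf4 (0.78). These counts were small and unstable, with 0 to 10 genes after sham and 0 to 5 after I/R when 1 array was left out: 10 after sham without wild-type sham array C, 4 without TLR4-/- I/R array B, 3 without wild-type sham D, 2 without TLR4-/- I/R C or wild-type I/R A, and 0 without wild-type sham B or TLR4-/- sham A or D. After I/R the count was 1 without wild-type I/R C and 0 without wild-type I/R A or B or any 1 of the TLR4-/- I/R arrays.

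Across all genes the calls after I/R overlapped between the genotypes, more for rises than for falls, and no gene was shown to depend on TLR4. In wild type 1226 genes rose (6.15% of those tested) and 724 fell (3.63%), and in TLR4-/- 1004 rose (5.04%) and 624 fell (3.13%), at a limma Benjamini-Hochberg adjusted p under 0.05. "Rose" and "fell" are used for such calls only. Counts of risen and fallen genes in the lists below are to be read beside these shares. Of the genes that rose, 805 did so in both genotypes, 65.7% of the wild-type and 80.2% of the TLR4-/- list. Of those that fell, 337 did, 46.5% and 54.0%. A call also depends on the size of the change and on the number of arrays. The sign in TLR4-/- was the same for 1211 of the 1226 wild-type rises and 688 of the 724 falls. The 95% interval of the interaction lay within −1 to 1 for 75.4% of genes risen in either genotype and 91.2% of those fallen (93.4% of all genes). The changes of the genotypes share no array, and across the 19938 genes they correlated at r = 0.84 (Spearman rho = 0.59), a description in which genes are not independent. Without single arrays the fallen genes were fewest: 473, 423 and 413 in wild type without I/R arrays A, C and D, and 333, 312 and 378 in TLR4-/- without I/R array C, sham array A and sham array D. The risen genes in TLR4-/- numbered 658 without sham array A. In sorted cells of this kind, fewer cells of a type and less RNA per cell cannot be told apart.

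**Figure D1:**
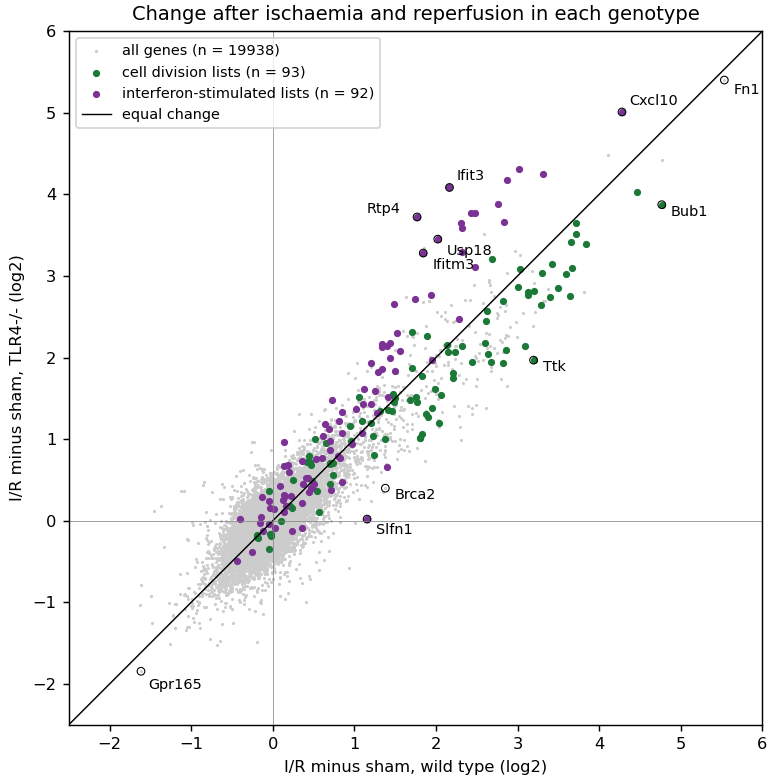
I/R minus sham change in wild type (x axis, log2) against the same change in TLR4-/- (y axis, log2) for 19938 genes in grey, with 93 genes of the cell division lists in green and 92 genes of the interferon-stimulated lists in purple. The line marks equal change; most purple genes that changed lie above it and most green genes below it, and Fn1 and Gpr165 lie close to it.

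The interaction was called for 0 of 19938 genes (0%), and the smallest adjusted p was 0.382. At an unadjusted p under 0.05 there were 762 genes (3.82%), 364 with a larger upward change in wild type (1.83%) and 398 with a larger upward change in TLR4-/- (2.0%). If no gene differed, about 997 genes would be expected at that threshold. The 762 are fewer than that and do not by themselves show TLR4 dependence. The standard error of the interaction had a median of 0.20, and the 95% interval reached a median of 0.43 to either side, so that for 18622 genes (93.4%) the interval lay within −1 to 1, that is, within a factor of 2. For the others a difference of a factor of 2 was not excluded. Where a change was itself smaller than a factor of 2, such an interval does not by itself show that the response was kept. The estimate was below 0 for 53.4% of genes. The count with a larger upward change in TLR4-/- was 710 without wild-type sham array C and 621 without TLR4-/- I/R array D, and without both it was 836, beside 551 in the other direction. The order of both counts changed in other settings. With the arrays centred on their medians 407 genes had the larger upward change in wild type and 351 in TLR4-/-, over genes above background 249 and 200, and without TLR4-/- I/R array B 516 and 401. Of the 364 and 398 genes, 90 and 179 had a mean in the background range. Ifitm3 was the 1 gene called in any of the 22 alternative settings (without wild-type sham array C: −1.70, adjusted p = 0.014); over all of its settings its adjusted p ran from 0.014 to 0.999.

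A gene was counted as having kept its response when it was called in the same direction in both genotypes and the interval of its interaction lay within −1 to 1. By that rule 595 genes kept a rise (2.98%) and 334 kept a fall (1.68%), and 199 and 11 of these changed at least 2-fold in both genotypes. Without TLR4-/- sham array A the kept rises numbered 394 and the kept falls 199; the kept falls also numbered 198 without TLR4-/- I/R array C and 219 without TLR4-/- sham array D. A further 807 genes were called in wild type only and 485 in TLR4-/- only, but 116 and 95 of these reached an unadjusted p under 0.05 for the interaction, so a call in 1 genotype did not by itself show a difference. Of the 616 genes called and changed at least 2-fold in either genotype, 317 had an interval within −1 to 1 and 122 an unadjusted p under 0.05.

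The genes of smallest interaction p, 5 in each direction, are given here although none was called. On the wild-type side Ttk, the kinase MPS1 of the spindle checkpoint, read 3.82, 3.70, 3.63 and 4.10 on the wild-type sham arrays and 7.41, 6.91, 6.81 and 6.90 on the wild-type I/R arrays. In TLR4-/- it read 4.05, 4.37 and 4.32 after sham and 6.15, 6.15 and 6.34 after I/R. The sham groups overlapped, and every wild-type I/R array was above every TLR4-/- I/R array. Ttk rose in both genotypes, 9.17-fold in wild type and 3.91-fold in TLR4-/-, and the interaction was 1.23 (SE 0.21, interval 0.77 to 1.68, adjusted p = 0.382).

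Brca2, a gene of DNA repair by homologous recombination, read 4.32, 4.30, 4.60 and 4.37 after sham and 5.91, 5.65, 5.90 and 5.64 after I/R in wild type. The TLR4-/- arrays read 4.74, 4.50 and 4.72 after sham and 5.27, 4.83 and 5.06 after I/R. The I/R groups did not overlap, the change was 1.38 in wild type, where it was called, and 0.40 in TLR4-/-, where it was not (adjusted p = 0.095), and the interaction was 0.98 (interval 0.59 to 1.37). Zfp599, a zinc finger gene, changed by 0.94 in wild type and −0.58 in TLR4-/- (1.52, interval 0.94 to 2.09); its 4 groups lay between 3.96 and 5.61, near the background level. The RIKEN gene 1700010I14Rik changed by 0.33 and −0.70 (interaction 1.03), and Kif3a, a kinesin-2 motor of intraflagellar transport, by 0.60 and −0.25 (interaction 0.85). The fall of 1700010I14Rik in TLR4-/- was lost without sham array A or B (adjusted p up to 0.064).

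On the TLR4-/- side 3 of the 5 genes are known interferon-stimulated genes. Ifit3, which binds other IFIT proteins in the antiviral response, read 7.43, 7.38, 6.95 and 6.35 on wild-type sham and 5.20, 5.66 and 5.98 on TLR4-/- sham arrays. After I/R it read 8.57, 9.35, 9.25 and 9.61 in wild type and 9.75, 9.77 and 9.56 in TLR4-/-. The sham groups did not overlap, with TLR4-/- lower, and the I/R groups did. Ifit3 rose 4.49-fold in wild type and 17.0-fold in TLR4-/-, and the interaction was −1.92 (SE 0.37, interval −2.70 to −1.14, adjusted p = 0.382).

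Rtp4, a receptor chaperone induced by interferon, read 8.08, 7.90, 7.02 and 7.84 on wild-type sham, 6.55, 5.85 and 5.77 on TLR4-/- sham, 8.76, 9.57, 9.59 and 9.99 on wild-type I/R and 10.06, 9.65 and 9.63 on TLR4-/- I/R arrays. The pattern was that of Ifit3, with sham groups apart and I/R groups overlapping, and the interaction was −1.95 (interval −2.79 to −1.12). Ifitm3, a membrane protein that restricts the entry of viruses, read 9.56, 9.40, 8.50 and 9.65 on wild-type sham and 7.90, 8.07 and 8.43 on TLR4-/- sham arrays. After I/R it read 10.78, 11.22, 11.21 and 11.28 in wild type and 11.50, 11.31 and 11.43 in TLR4-/-, with no overlap in either condition. Ifitm3 rose 3.59-fold and 9.72-fold, with an interaction of −1.44 (interval −2.10 to −0.77). The sham differences between genotypes were −1.42 for Ifit3, −1.65 for Rtp4 and −1.15 for Ifitm3 and were not called (adjusted p = 0.15, 0.097 and 0.18). Without wild-type sham array C those of Rtp4 (−1.88, adjusted p = 0.01) and Ifitm3 (−1.41, adjusted p = 0.0028) were called. That of Rtp4 was also called without wild-type I/R array A (−1.65, adjusted p = 0.045) and that of Ifit3 without wild-type sham array D (−1.64, adjusted p = 0.03). Without wild-type sham C and TLR4-/- I/R D together, Rtp4 (adjusted p = 0.018) and Ifitm3 (adjusted p = 0.0059) were called.

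The remaining 2 genes moved in opposite directions in the genotypes. Cdc26, a subunit of the anaphase-promoting complex, read 7.28, 7.06, 6.70 and 7.12 on wild-type sham, 6.53, 6.70, 6.61 and 6.51 on wild-type I/R, 6.11, 6.43 and 6.30 on TLR4-/- sham and 7.05, 6.86 and 6.58 on TLR4-/- I/R arrays. It fell by 0.45 in wild type and rose by 0.55 in TLR4-/-, the 1 gene called in opposite directions, and its interaction was −1.0 (interval −1.43 to −0.57). The wild-type call was lost without 8 of the 14 arrays in turn (each wild-type array other than I/R B and sham C, and TLR4-/- I/R C and sham D; adjusted p up to 0.115). The TLR4-/- call was lost without 5 (TLR4-/- I/R B or C, TLR4-/- sham A or D, wild-type I/R C; up to 0.16). Tada2a, an adaptor of histone acetyltransferase complexes, fell by 0.51 in wild type and changed by 0.30 in TLR4-/- without a call (interaction −0.80).

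**Figure D2:**
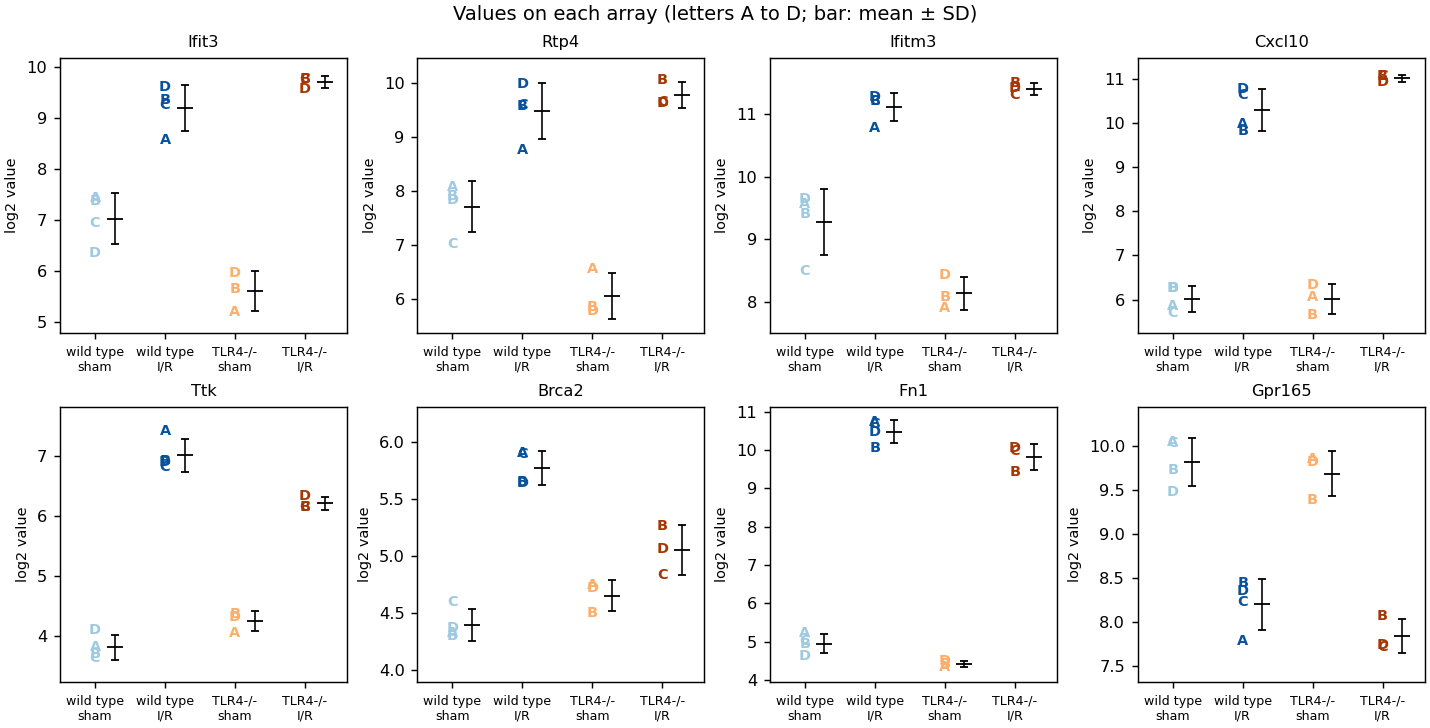
Log2 value of 8 genes on each array (letters are array names; horizontal bar and whiskers, mean ± SD of 4 wild-type or 3 TLR4-/- arrays), in the groups wild-type sham, wild-type I/R, TLR4-/- sham and TLR4-/- I/R. Ifit3, Rtp4 and Ifitm3 are lower in TLR4-/- than in wild type after sham, Ttk and Brca2 are higher in wild type than in TLR4-/- after I/R, and Fn1 and Gpr165 change alike.

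Promoter sequences were looked at for some of these genes. Windows of 300 bases, 250 before and 50 after the annotated start (RefSeq, GRCm38.p6), were searched on both strands for the core of the interferon-stimulated response element, GAAANNGAAA, and for the cell cycle homology region core TTTGAA, an element known from promoters of late cell cycle genes. The motifs can share bases at GAA, and each was counted by itself. Stretches that carry the motifs in Ifit3, Ifitm3, Ttk and the mitotic kinesin Kif20b are shown, since the first 3 are among the genes of smallest interaction p and the last has 2 adjoining matches; capitals mark the motif on either strand. They are read 5′ to 3′ on the gene's strand. Kif20b was chosen after its values were seen. Only windows with a match are printed. Rtp4, Usp18 and Brca2 were also tried and gave no stretch to print. For Rtp4 and Usp18 there was no usable window, so the missing stretch does not show that their promoters lack the core. None was sought for Zfp599, 1700010I14Rik, Kif3a, Cdc26 or Tada2a. The stretches are examples and do not show a feature shared by all genes of smallest p.
Ifit3: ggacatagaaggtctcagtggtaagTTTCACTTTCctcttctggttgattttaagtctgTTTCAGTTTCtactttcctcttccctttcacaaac
Ifitm3: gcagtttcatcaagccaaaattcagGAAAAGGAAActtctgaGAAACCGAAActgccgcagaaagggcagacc
Ttk: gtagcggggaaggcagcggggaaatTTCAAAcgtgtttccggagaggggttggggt
Kif20b: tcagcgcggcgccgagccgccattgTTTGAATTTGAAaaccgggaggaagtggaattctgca
The Ifit3 stretch lies at chr19:34583348-34583441 on the plus strand and begins 181 bases before the start. That of Ifitm3 lies at chr7:141010695-141010767 on the minus strand, Ttk at chr9:83834671-83834726 and Kif20b at chr19:34922340-34922401, both on the plus strand. These 3 span the annotated start. Each of Ifit3, Ifitm3 and Kif20b held 2 matches and Ttk held 1.

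The interferon core was present in 1131 of 32851 windows (3.44%) and in at least 1 window of 607 of the 15614 genes measured here that have one (3.89%). It was present in 16 of 31 antiviral effector genes with a window (51.6%), 7 of 8 PYHIN genes, 5 of 5 GBP and IRG genes, 3 of 7 Schlafen genes, 3 of 11 nucleic acid sensors and 1 of 10 genes of the ISG15 and PARP group. Of 31 mitosis genes 2 held it (6.45%). The cell cycle core was present in 17.3% of the measured genes, in 24 of 31 mitosis genes (77.4%), in 7 of 31 antiviral effectors (22.6%) and in 3 of 29 DNA replication genes (10.3%). It was also present in 4 of 7 Schlafen genes and 5 of 10 genes of the ISG15 and PARP group. A match is a description of the letters in these windows and does not show that a factor binds there.

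Among the interferon-stimulated genes, the change after I/R was larger in TLR4-/- for most members, from a lower sham level to I/R levels that overlapped those of wild type for the largest list. The 6 lists of such genes held 92 measured genes. At an unadjusted p under 0.05, 25 of them (27.2%) had a larger upward change in TLR4-/- and 1 in wild type, beside 2.0% and 1.83% of all genes; none was called. They made up 25 of the 398 genes in that direction. The lists were written with earlier results of these data known, so their counts are a description.

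The antiviral effectors, which block viral entry, translation or replication, numbered 40. Of these 28 rose in wild type, 29 in TLR4-/- and none fell. The median change was 1.27 in wild type and 1.71 in TLR4-/-, and the median interaction was −0.47, beside −0.06, −0.03 and −0.02 over all genes. The interaction was below 0 for 35 of the 40 (53.4% of all genes), and 15 had an unadjusted p under 0.05, all in that direction. The sham mean was lower in TLR4-/- for 32 of the 40, beside 9293 of all 19938 genes. Other lists had the same pattern of signs: in oxidative phosphorylation 25 of 29 interactions were below 0 and 27 of 29 sham means lower in TLR4-/-, in MHC class I and the immunoproteasome 13 and 12 of 14, and in the constitutive proteasome 18 and 22 of 24. The mean of the list was 6.62, 6.61, 6.37 and 6.58 on wild-type sham arrays A to D and 6.11 to 6.17 on the TLR4-/- sham arrays, with no overlap. After I/R it was 7.34, 7.85, 7.91 and 8.11 in wild type and 7.92 to 8.12 in TLR4-/-, and the groups overlapped. The median genotype difference, TLR4-/- minus wild type, was −0.37 after sham and 0.16 after I/R. The median interaction was −0.56 without wild-type sham array C, −0.43 without TLR4-/- I/R array D and −0.45 without both. It was −0.31 without wild-type I/R array A, whose list mean was below that of arrays B to D, and the 15 genes numbered 12 to 18 over all arrays left out in turn.

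Among single effectors, Oas1a, a synthetase of the 2-5A messenger that activates RNase L, rose by 1.49 in wild type and 2.66 in TLR4-/- (interaction −1.17, interval −1.86 to −0.47). Its sham values were 5.45 to 6.05 in wild type and 4.74 to 5.11 in TLR4-/-. Ifi27l2a rose by 3.31 and 4.25 (interaction −0.94). Cxcl10, the interferon-induced chemokine for CXCR3-bearing lymphocytes, differed in pattern: its sham values overlapped (5.70 to 6.27 and 5.64 to 6.33), and after I/R it read 9.98, 9.82, 10.64 and 10.77 in wild type and 11.08, 11.06 and 10.93 in TLR4-/-, without overlap. It rose 19.4-fold and 32.2-fold (interaction −0.73, interval −1.40 to −0.06).

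The enzymes of the ISG15 and PARP group showed the same direction. Of 14, 9 rose in each genotype, 5 by the kept rule, and 3 had a negative interaction at an unadjusted p under 0.05. Usp18, the ISG15 protease that also dampens the interferon receptor, read 6.61, 6.31, 6.21 and 6.44 on wild-type sham and 5.44, 5.63 and 5.19 on TLR4-/- sham arrays. After I/R it read 7.53, 8.57, 8.52 and 9.06 in wild type, with array A lowest, and 8.87, 8.82 and 8.92 in TLR4-/-. It rose 4.06-fold and 10.9-fold, with an interaction of −1.43 (interval −2.16 to −0.70, adjusted p = 0.616).

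The 14 sensors of nucleic acid and their adaptors had a median change of 0.45 in wild type and 0.59 in TLR4-/-, and 9 rose in each. Those with a negative interaction at an unadjusted p under 0.05 were Zbp1, a sensor of Z-form nucleic acid (2.84 and 3.66), Dhx58, the RIG-I-like helicase LGP2 (1.33 and 2.13), and Cgas, the DNA sensor that makes cyclic GMP-AMP (0.13, not called, and 0.67). The Cgas call was lost without 5 of the TLR4-/- arrays in turn, all but sham A (adjusted p up to 0.096). For the 8 measured PYHIN genes, the family of DNA-binding AIM2-like proteins, the median interaction of −0.11 turned to 0.14 without wild-type I/R array A and ran from −0.39 over the other arrays left out, so the family had no stable direction. Ifi206 (3.02 and 4.31) and Ifi207 (2.48 and 3.11) had a negative interaction at an unadjusted p under 0.05, while Ifi214 changed by 1.40 and 0.66 (interaction 0.74, interval −0.16 to 1.64).

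The Schlafen genes include restriction factors that act on transfer RNA. Their interaction was below 0 for 6 of 7, with a median of −0.37 and Slfn1 the exception. The median change had the reverse order, 1.16 in wild type and 0.73 in TLR4-/-, in this list of 7 genes. Slfn5 rose by 2.32 in wild type and 3.59 in TLR4-/- (interaction −1.28), and Slfn2 by 1.34 and 2.17 (−0.83). Slfn1 went the other way. It read 3.61, 4.0, 4.25 and 4.12 on wild-type sham, 4.70, 5.56, 4.92 and 5.41 on wild-type I/R, 4.20, 4.51 and 4.33 on TLR4-/- sham and 4.32, 4.20 and 4.58 on TLR4-/- I/R arrays. It rose by 1.16 in wild type and changed by 0.02 in TLR4-/- (interaction 1.14, interval 0.56 to 1.72, adjusted p = 0.616), at values near the background level. Of the 9 measured GBP and IRG GTPases, which attack the vacuoles of intracellular pathogens, none reached an unadjusted p under 0.05; the median interaction was −0.34, and Iigp1 (1.44 and 2.18) and Irgm1 (0.73, not called, and 1.48) were the members of smallest p.

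**Figure D3:**
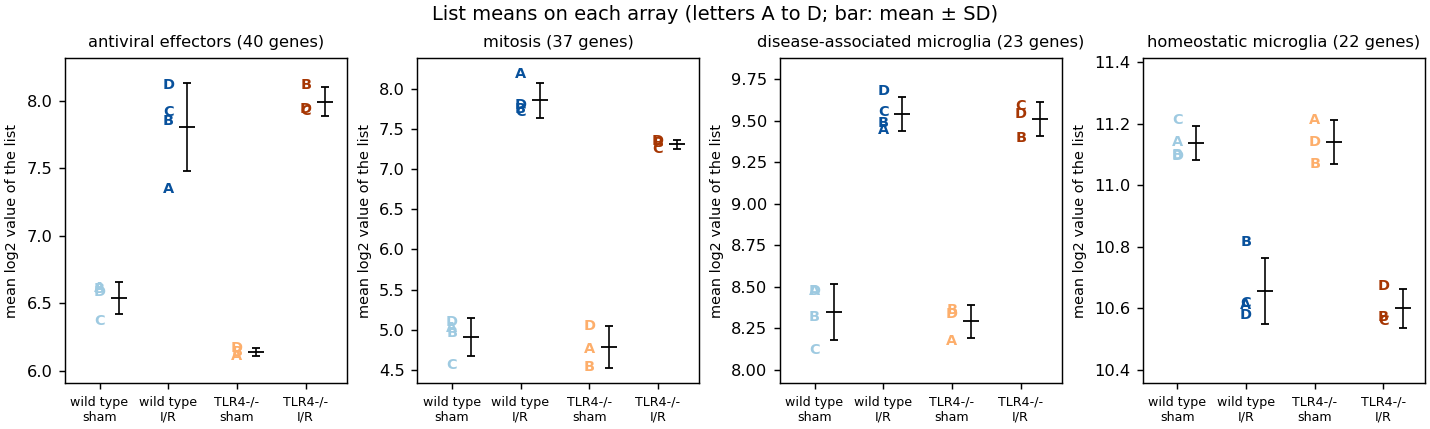
Mean log2 value of 4 gene lists on each array (letters are array names; bar and whiskers, mean ± SD of 4 wild-type or 3 TLR4-/- arrays). The antiviral effectors are lower in TLR4-/- after sham (6.11 to 6.17 against 6.37 to 6.62), the mitosis genes are lower in TLR4-/- after I/R (7.25 to 7.36 against 7.72 to 8.19), and the disease-associated and homeostatic microglial lists overlap between genotypes in each condition.

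Of 22 measured receptors and transcription factors of the interferon pathway, 2 rose and 4 fell in wild type (6.15% and 3.63% of all genes) and 2 rose and 2 fell in TLR4-/- (5.04% and 3.13%). The interaction reached an unadjusted p under 0.05 for none. The interval lay within −1 to 1 for 19 of 22 (93.4% of all genes). Irf7, the amplifier of type I interferon transcription that is itself interferon-induced, rose by 1.92 and 2.69 (interaction −0.77, interval −1.58 to 0.03). Stat2, a transcription factor activated by type I interferon, rose by 1.05 and 1.45 (interaction −0.40, interval −1.05 to 0.25). For MHC class I and the immunoproteasome all 14 intervals lay within −1 to 1 (93.4% of all genes), with 3 kept rises. The list mean changed by 0.20 in wild type and 0.34 in TLR4-/-. Psme2, the PA28 beta activator of the proteasome, rose by 0.67 and 1.13, and the class I gene H2-Q4 by 0.83 and 0.94. No gene of the 8 measured for MHC class II presentation was called in either genotype.

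Mitosis genes rose in both genotypes, and most estimates were larger in wild type. Each of the 37 mitosis genes measured rose in both, with a median change of 3.03 in wild type and 2.64 in TLR4-/-, beside a background of 6.15% and 5.04% of genes that rose. The interaction was above 0 for all but 2, with a median of 0.42, and 11 had an unadjusted p under 0.05, all with the larger change in wild type (1.83% of all genes); 14 were kept by the rule. The list mean was 4.56 to 5.09 on wild-type sham and 4.54 to 5.05 on TLR4-/- sham arrays, which overlapped. After I/R it was 8.19, 7.75, 7.72 and 7.80 on wild-type arrays A to D and 7.25 to 7.36 on the TLR4-/- arrays, which did not overlap. The 11 genes numbered 6 without TLR4-/- sham array D, 7 without TLR4-/- I/R array D or wild-type I/R array A, 8 without wild-type sham array C and 5 without wild-type sham C and TLR4-/- I/R D together. The median interaction stayed between 0.25 and 0.52 over all arrays left out.

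Among these genes the outer kinetochore subunit Spc24 read 4.41, 4.59, 4.61 and 4.59 on wild-type sham, 6.68, 6.38, 6.45 and 6.82 on wild-type I/R, 4.83, 4.82 and 4.73 on TLR4-/- sham and 6.05, 5.67 and 6.24 on TLR4-/- I/R arrays. The I/R groups did not overlap, and Spc24 rose by 2.04 and 1.19 (interaction 0.84, interval 0.43 to 1.26). Kif23, a kinesin of the central spindle, rose by 3.09 and 2.14 (interaction 0.95), Hmmr, a spindle-associated hyaluronan receptor, by 3.65 and 2.76 (0.89), and Kif20b, which is on none of the lists, by 2.79 and 1.74 (1.05, interval 0.52 to 1.57). Bub1, a spindle checkpoint kinase, had the largest mean change of the list with 4.77 and 3.87 (0.89, interval −0.04 to 1.82), and wild-type sham array C was its lowest at 2.55. The proliferation marker Mki67 was kept: it read 5.43, 5.07, 4.88 and 5.71 on wild-type sham, 9.03, 8.40, 8.63 and 8.70 on wild-type I/R, 4.97, 4.96 and 5.33 on TLR4-/- sham and 8.31, 8.23 and 8.17 on TLR4-/- I/R arrays. Its sham groups overlapped, but its I/R groups did not, with TLR4-/- lower. It rose 10.7-fold and 8.87-fold (interaction 0.27, interval −0.28 to 0.81) and met the kept rule in 22 of 22 alternative settings, as against 21 for Top2a, the topoisomerase that untangles chromosomes, and 9 for Ccna2, cyclin A2.

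DNA replication genes were closer between the genotypes. Of 34, 29 rose in wild type and 31 in TLR4-/-, 19 were kept, and the median interaction was 0.03. Those with a larger upward change in wild type at an unadjusted p under 0.05 numbered 4. They included Pola1, the catalytic subunit of DNA polymerase alpha (1.83 and 1.07), Chaf1a, a histone chaperone of the replication fork (1.80 and 1.02), and Tyms, thymidylate synthase (1.81 and 1.02; the TLR4-/- call was lost without I/R array C or sham array A, adjusted p up to 0.077). Prim1, a primase subunit, rose by 3.01 and 2.87 (interaction 0.14, interval −0.45 to 0.73). In the 22 genes of G1 cyclins, E2F factors and pocket proteins, 10 rose in wild type and 9 in TLR4-/-, with median changes of 0.36 and 0.41; E2f8, a late repressor of the E2F family, rose by 2.64 and 2.04 (0.60), and Ccne2, cyclin E2, by 2.23 and 2.07 (0.16).

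**Figure D4:**
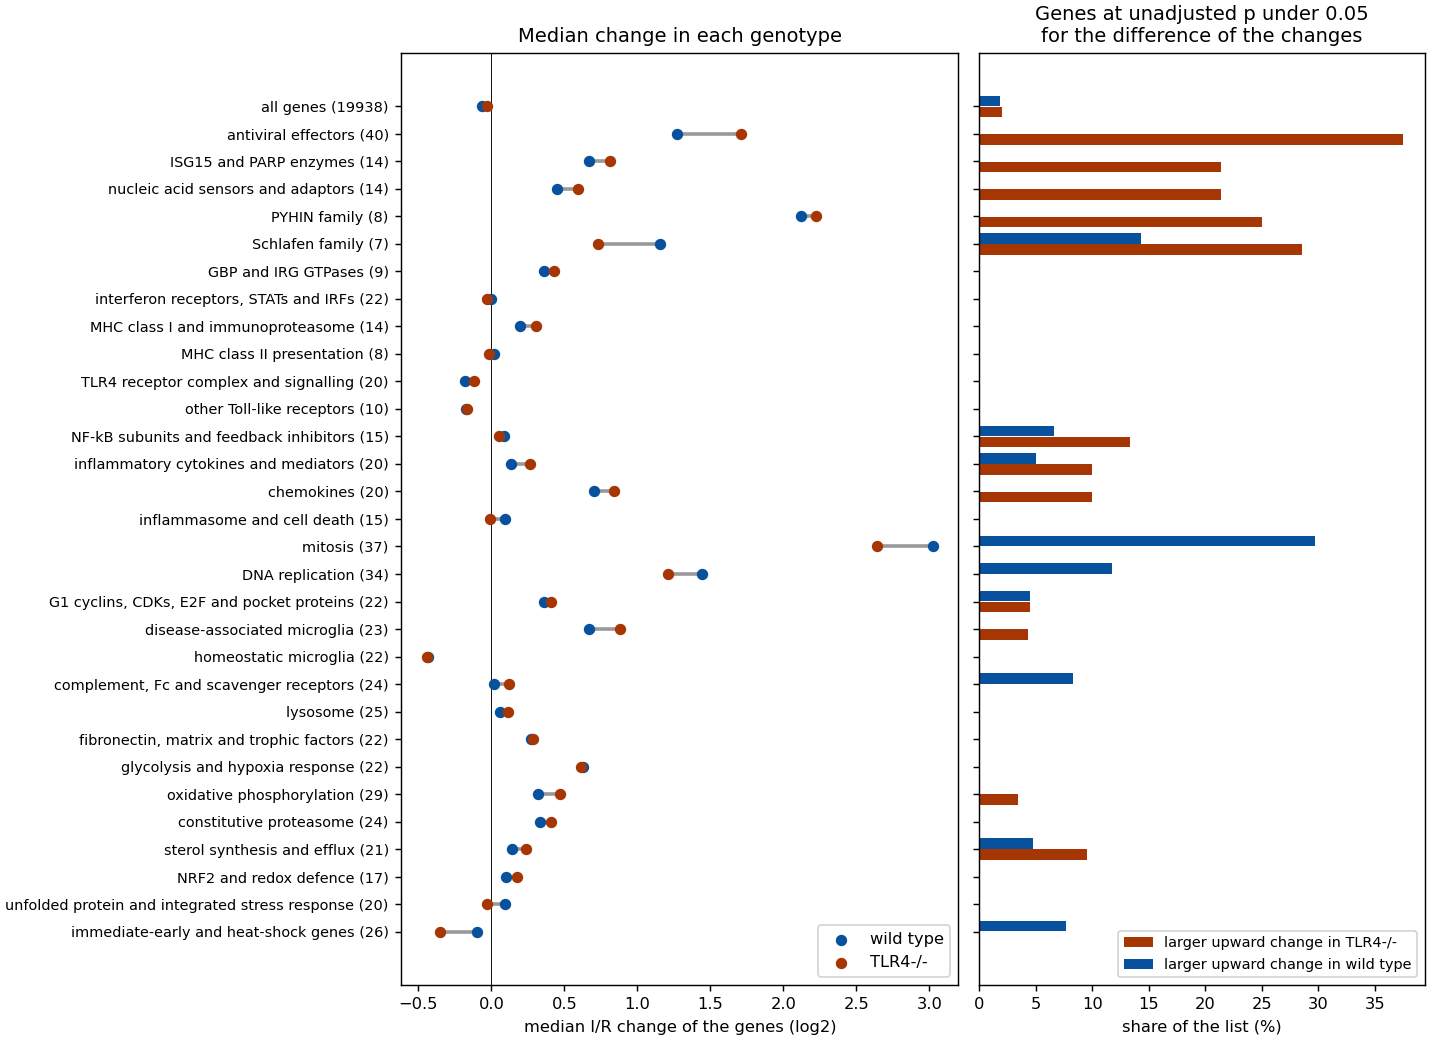
Left, the median I/R change (log2) over the measured genes of each list in wild type (blue) and TLR4-/- (orange-brown), with the number of genes in brackets and all genes at the top. Right, the share of each list (%) at an unadjusted p under 0.05 for the interaction, by direction; 15 of 40 antiviral effectors and 11 of 37 mitosis genes stand out in opposite directions, and no gene was called.

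Of the 22 measured genes of the homeostatic list, which mark resting microglia, 15 fell in wild type and 13 in TLR4-/- (3.63% and 3.13% of all genes). All 22 had an interval within −1 to 1 (93.4% of all genes), and 12 were kept (1.68% of all genes were kept falls). The list mean was 11.10 to 11.21 and 11.07 to 11.21 after sham and 10.58 to 10.82 and 10.56 to 10.67 after I/R. Adgrg1, the adhesion receptor GPR56, read 10.31, 10.19, 9.92 and 10.07 on wild-type sham, 8.98, 9.58, 9.07 and 8.88 on wild-type I/R, 10.06, 10.16 and 10.13 on TLR4-/- sham and 8.92, 9.07 and 9.32 on TLR4-/- I/R arrays. It fell by 1.00 and 1.01, with an interaction of 0.02 (interval −0.45 to 0.48). Sall1, a transcription factor of microglial identity, fell by 0.64 and 0.73 (interval −0.33 to 0.49), and Siglech by 0.51 and 0.55 (interval −0.30 to 0.38).

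Of the 23 measured disease-associated microglia genes, which rise in phagocytic microglia near damage, 14 rose in each genotype and 7 were kept. The list mean changed by 1.19 and 1.22 and the groups of the genotypes overlapped in both conditions. Lpl, lipoprotein lipase, rose by 2.98 and 2.44 (interaction 0.54, interval −0.01 to 1.10), Gpnmb, a lysosomal glycoprotein, by 3.07 and 2.55 (0.52, interval −0.11 to 1.15), and Itgax, the integrin CD11c, by 1.59 and 2.33 (−0.73, interval −1.45 to −0.01). Itgax was the 1 member of the list at an unadjusted p under 0.05.

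The genes of largest kept rise were Fn1, fibronectin, and Cd72, a C-type lectin co-receptor. Fn1 read 5.23, 4.93, 5.01 and 4.62 on wild-type sham, 10.72, 10.05, 10.67 and 10.48 on wild-type I/R, 4.35, 4.42 and 4.49 on TLR4-/- sham and 9.42, 9.99 and 10.06 on TLR4-/- I/R arrays. Its sham groups did not overlap, with TLR4-/- lower, and its I/R groups did. It rose 46.4-fold and 42.3-fold, the interaction was 0.13 (interval −0.42 to 0.68), and the kept rule was met in 22 of 22 settings. Cd72 rose 17.3-fold and 22.4-fold (−0.37, interval −0.96 to 0.22), with the rule met in 12 of 22. The largest kept fall was that of Gpr165, an orphan G protein-coupled receptor, which read 10.04, 9.72, 10.02 and 9.47 on wild-type sham, 7.78, 8.44, 8.22 and 8.35 on wild-type I/R, 9.85, 9.38 and 9.82 on TLR4-/- sham and 8.06, 7.72 and 7.74 on TLR4-/- I/R arrays. It fell by 1.62 and 1.84 (interaction 0.23, interval −0.31 to 0.77; 22 of 22 settings). Upk1b, a tetraspanin, fell by 1.22 and 1.16, and Fscn1, the actin-bundling protein fascin, by 1.22 and 1.15, both also kept in 22 of 22.

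Matrix and trophic genes, the list that holds Fn1, had 7 kept rises and 2 kept falls among 22 (2.98% and 1.68% of all genes). Of their intervals 20 lay within −1 to 1 (93.4% of all genes). In the list of complement, Fc and scavenger receptors, 8 rose and 1 fell in each genotype. Of its genes 2 had a larger upward change in wild type at an unadjusted p under 0.05. Cd36, which takes up oxidised lipids, read 6.10, 5.81, 5.98 and 5.81 on wild-type sham, 7.48, 7.46, 7.56 and 7.46 on wild-type I/R, 5.69, 5.52 and 6.21 on TLR4-/- sham and 6.58, 6.84 and 6.66 on TLR4-/- I/R arrays. The I/R groups did not overlap, and Cd36 rose 2.97-fold and 1.84-fold (interaction 0.69, interval 0.26 to 1.12). Cd5l, a secreted scavenger protein of macrophages, rose by 2.68 and 1.84 (0.84), while Msr1, the class A scavenger receptor, rose by 2.87 and 3.03 (−0.17, interval −1.01 to 0.68). For the 25 lysosome genes 24 intervals lay within −1 to 1 (93.4% of all genes), and the list mean changed by 0.21 and 0.25.

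Among 20 measured members of the TLR4 receptor complex and its signalling chain, 1 rose and 1 fell in wild type, beside 6.15% and 3.63% of all genes, and none was called in TLR4-/-. None reached an unadjusted p under 0.05 for the interaction (3.82% of all genes), and 19 intervals lay within −1 to 1 (93.4% of all genes), shares near those over all genes. The pair called in wild type was Ikbke, a kinase of interferon regulatory factors (0.53), and Tlr4 itself, which fell by 0.48. Both calls were weak (adjusted p = 0.027 and 0.049). That of Ikbke was lost without wild-type I/R A, C or D or wild-type sham A or D, and that of Tlr4 without 10 arrays in turn, all but TLR4-/- I/R B and D, wild-type I/R B and wild-type sham D (adjusted p up to 0.085 and 0.138). Myd88 changed by −0.18 and 0.21 (interaction −0.39, interval −0.84 to 0.06), Ticam2, the adaptor TRAM, by −0.09 and 0.16, and Tirap by −0.41 and −0.70 (0.29, interval −0.30 to 0.88). Tlr2, the receptor for lipoproteins, rose in both genotypes: it read 8.87 to 9.16 on wild-type sham, 9.78 to 10.16 on wild-type I/R, 8.73 to 9.12 on TLR4-/- sham and 10.14 to 10.30 on TLR4-/- I/R arrays, a rise of 2.01-fold and 2.36-fold (interaction −0.23, interval −0.61 to 0.15).

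NF-kB subunits and their feedback inhibitors had list means that changed by 0.07 in both genotypes. In each 1 of 15 rose, near the share over all genes (6.15% in wild type and 5.04% in TLR4-/-). Of the 15, 3 reached an unadjusted p under 0.05 for the interaction (3.82% of all genes), 1 with the larger upward change in wild type and 2 in TLR4-/-. The former was Tnip3, an inhibitor of NF-kB activation (0.23 and −0.23, neither called; interaction 0.46, interval 0.08 to 0.83), with a mean of 3.33, in the background range. Relb, a subunit of the non-canonical pathway, changed by 0.02 and rose by 0.39 (interaction −0.37), with the call in TLR4-/- lost without 10 arrays in turn (any TLR4-/- array, wild-type I/R A or D, wild-type sham B or D; adjusted p up to 0.142). Nfkbib, the inhibitor IkB beta, changed by −0.03 and 0.54, neither called (interaction −0.57).

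Inflammatory cytokines, among them textbook targets of NF-kB, had list means of 5.72 to 6.24 after I/R in wild type and 6.04 to 6.26 in TLR4-/-, which overlapped. Of 20 measured cytokines and mediators, 7 rose and 1 fell in wild type, beside 6.15% and 3.63% of all genes. In TLR4-/- 6 rose and 1 fell, beside 5.04% and 3.13%. The list mean changed by 0.57 and 0.61. Tnf read 7.60, 8.50, 7.47 and 7.74 on wild-type sham, 9.45, 8.68, 9.34 and 9.34 on wild-type I/R, 7.68, 7.96 and 8.06 on TLR4-/- sham and 9.15, 9.64 and 9.49 on TLR4-/- I/R arrays. It rose by 1.37 and 1.53, with an interaction of −0.15 (interval −0.83 to 0.53). Il6, in contrast, fell in both, by 1.06 and 1.34 (0.28, interval −0.54 to 1.09). Tnf and Il6 were chosen as TLR4 targets after the values of the list were seen.

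Il1b, the precursor of interleukin-1 beta, read 6.26, 6.78, 6.82 and 7.52 on wild-type sham, 8.35, 7.67, 8.87 and 9.04 on wild-type I/R, 6.10, 6.46 and 6.50 on TLR4-/- sham and 8.60, 9.41 and 9.29 on TLR4-/- I/R arrays. The genotypes overlapped in both conditions, Il1b rose 3.11-fold and 6.70-fold, and the interaction was −1.11 (interval −2.03 to −0.19). Saa3, an acute-phase protein made by macrophages, had the opposite sign: it read 7.32, 6.03, 7.06 and 6.34 on wild-type I/R and 6.33, 4.89 and 5.49 on TLR4-/- I/R arrays and rose by 2.45 and 1.31 (1.14, interval 0.18 to 2.10). The TLR4-/- call of Saa3 was lost without I/R B or D or any 1 of the sham arrays of that genotype (adjusted p up to 0.11). Ptgs2, cyclooxygenase-2, rose by 2.68 and 1.89 with the widest interval of those named (0.79, −0.68 to 2.25); wild-type I/R array B read 5.54 and the others 8.08 to 8.46, and the TLR4-/- call was lost without any 1 of the 6 TLR4-/- arrays (up to 0.122).

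Of 20 chemokines, 9 rose in wild type and 10 in TLR4-/-, beside 6.15% and 5.04% of all genes. The list mean changed by 0.74 and 0.96, and the interaction was below 0 for 16 (53.4% of all genes). Ccl12, a ligand of CCR2, rose by 1.50 and 2.09 (−0.59, interval −1.11 to −0.08), and Cxcl16, the ligand of CXCR6, by 1.04 and 1.61 (−0.56, interval −1.11 to −0.02). Ccl5, which draws T cells and is also interferon-induced, rose by 2.64 and 2.95 (−0.30, interval −1.33 to 0.72). For inflammasome and cell death genes all 15 intervals lay within −1 to 1, beside 93.4% of all genes. Their median change was 0.09 in wild type and −0.01 in TLR4-/-, so these intervals do not show a kept response.

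The 22 glycolysis and hypoxia genes had 9 kept rises, none at an unadjusted p under 0.05, and list means that changed by 0.55 in both; Pgk1, a glycolytic kinase, rose by 1.50 and 1.64 (−0.14, interval −0.73 to 0.44). Oxidative phosphorylation genes rose in 10 and 9 of 29 cases, beside 6.15% and 5.04% of all genes. Their list means were 8.52 on wild-type sham array C, 9.04 to 9.12 on the other wild-type sham arrays and 8.56 to 8.86 on the TLR4-/- sham arrays. The median interaction of −0.10 was −0.22 without wild-type sham array C, and Ndufa1, a subunit of complex I, rose by 1.15 and 1.83 (−0.68). For the constitutive proteasome all 24 intervals lay within −1 to 1 (93.4% of all genes). Of 21 genes of sterol synthesis and efflux 3 reached an unadjusted p under 0.05 (3.82% of all genes), 1 with the larger upward change in wild type and 2 in TLR4-/-. Ch25h, which makes 25-hydroxycholesterol, rose by 4.78 and 4.42 (0.35, interval −0.40 to 1.10), and Hsd17b7, an enzyme of cholesterol synthesis, changed by −0.27 and 0.85, neither called (−1.11, interval −1.86 to −0.36).

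Asns, asparagine synthetase of the integrated stress response, rose by 1.60 and 1.23 (0.36, interval −0.20 to 0.93). The redox list mean changed by 0.28 in both genotypes. Immediate-early and heat-shock genes fell in 6 of 26 cases in each genotype, beside 3.63% and 3.13% of all genes, with 5 kept falls. Egr2, an immediate-early transcription factor, changed by 0.63 and −0.49, neither called (interaction 1.12, interval 0.30 to 1.94). Genes of this class can respond to tissue handling; their part here was not tested.

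**Figure D5:**
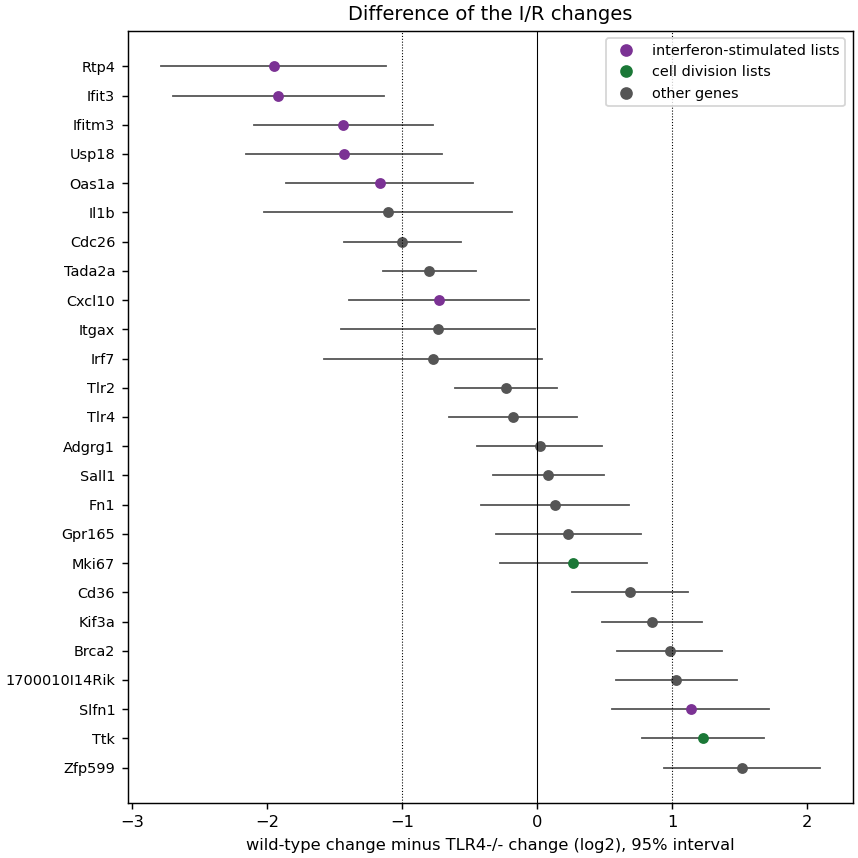
Interaction (wild-type change minus TLR4-/- change, log2) with its 95% interval for 25 genes named in the text, purple for interferon-stimulated lists, green for cell division lists and grey for other genes; dotted lines mark a factor of 2. The intervals of Ifit3 and Rtp4 lie wholly below −1, those of Gpr165, Fn1, Sall1, Adgrg1, Tlr4 and Tlr2 lie within −1 to 1, and no gene was called. Ifit3 and Rtp4 were picked by smallest p on these same arrays. Their intervals are not adjusted for that choice and do not show a difference above a factor of 2.

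Markers of other cells moved as follows beside these results. Of 11 measured monocyte genes 8 rose in wild type and 6 in TLR4-/-, beside 6.15% and 5.04% of all genes. The list mean went from 4.63 to 4.78 up to 6.29 to 6.75 in wild type and from 4.45 to 4.66 up to 6.20 to 6.31 in TLR4-/-. Fn1 is on that list, as are Vim, which rose by 3.20 and 2.91, and S100a4, which rose by 1.27 and 1.48. Ccr2, the receptor that defines inflammatory monocytes, was called in neither genotype; it read 5.80 to 6.05 on wild-type sham, 6.13 to 6.69 on wild-type I/R, 5.49 to 5.98 on TLR4-/- sham and 5.48 to 5.69 on TLR4-/- I/R arrays, without overlap after I/R (interaction 0.62, interval 0.18 to 1.07). The border-associated macrophage list was 7.33 to 7.69 and 6.67 to 7.41 after sham and 7.20 to 7.78 and 6.82 to 7.30 after I/R, and Cd209a, a lectin of that list, fell by 1.33 in wild type and changed by −0.32 in TLR4-/- (−1.02). The neutrophil list had 2 of 13 genes above the background level. The astrocyte list, with 4 of 10 genes above background, averaged 5.09 to 5.40 on wild-type sham, 4.76 to 5.26 on wild-type I/R, 5.07 to 5.27 on TLR4-/- sham and 4.99 to 5.44 on TLR4-/- I/R arrays. Its mean changed by −0.25 in wild type and 0.04 in TLR4-/-, the interaction was below 0 for 7 of 10 genes, and none reached an unadjusted p under 0.05. Aldoc, a glycolytic aldolase of astrocytes, had the lowest interaction of that list (−1.54, interval −3.26 to 0.17). The oligodendrocyte list mean changed by −0.04 and 0.09, with the interaction below 0 for 9 of 10 genes and none at an unadjusted p under 0.05. Both lists had the sign of the interferon-stimulated genes. The part of these cells in the differences between genotypes was not tested.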

How the data were processed

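The deposited table holds log2 values of 14 arrays, which the authors made with RMA in the oligo package, per the submitters' processing notes; those notes give no versions. RMA corrects background, normalises between arrays and summarises probes, so values of 1 array depend on the others. The 1621 rows of several symbols and the 12146 without one were not used, and 999 genes had more than 1 row. Of 19938 symbols, 19856 matched RefSeq.

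A linear model with the 4 groups was fitted with limma 3.58.1 (R 4.3.3; lmFit, eBayes) on all genes, without covariates, with Benjamini-Hochberg adjustment over all genes for each contrast. Members, gene lists and tests were chosen with earlier results of these data known. Named genes were the 5 of smallest interaction p per direction, up to 4 members per list by interaction p and 2 by change, Tlr4, and up to 6 kept genes per direction; genes chosen otherwise are said to be, or are called between genotypes. Array letters are shared between groups, but of 18 same-letter pairs 3 had deviations correlated above 0.1 (range −0.099 to 0.28), so they were not taken as pairs. The number of arrays limits the precision. Alternatives were arrays left out, centring, quantile normalisation, a background filter, row averaging, trend and robust fits, array weights and a replicate block.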

Additional observations from a re-analysis of the deposited data

Results flagged for a closer look

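In the wild-type groups of 4 arrays, 103 genes and 41 list means were examined for an array whose gap to its nearest neighbour took more of the group's range than Dixon's 95% critical value allows. This held in 21 of 288 groups (7.29%), and chance alone gives about 1 in 20. No explanation was tested.

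Wild-type sham array C stood low in 6 of them: Bub1 at 2.55 (others 3.76 to 3.95), Ch25h at 3.34 (3.69 to 3.73), and the list means of antiviral effectors at 6.37 (6.58 to 6.62), glycolysis and hypoxia genes at 7.57 (7.82 to 7.84), oxidative phosphorylation at 8.52 (9.04 to 9.12) and the constitutive proteasome at 9.08 (9.47 to 9.51). Wild-type I/R array A also stood apart in 6. It was high for Ttk at 7.41 (6.81 to 6.91) and low for Ifitm3 at 10.78 (11.21 to 11.28), Slfn2 at 8.33 (9.01 to 9.12), Myd88 at 8.48 (8.70 to 8.73), Ccl5 at 7.41 (8.93 to 9.18) and the endothelial and pericyte list at 4.39 (4.49 to 4.51).

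Wild-type I/R array B was low for Ptgs2 at 5.54 (8.08 to 8.46), Tnf at 8.68 (9.34 to 9.45) and the immediate-early and heat-shock list at 7.29 (7.74 to 7.82), and high for the homeostatic list at 10.82 (10.58 to 10.62). Array D of that group was high for Nfkbib at 7.68 (7.40 to 7.45). Wild-type sham array A was low for Spc24 at 4.41 (4.59 to 4.61) and high for Rrm2 at 5.41 (4.55 to 4.69) and the T and NK cell list at 4.13 (3.95). Wild-type sham array D was high for Ccl5 at 6.66 (5.70 to 5.87).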

How the results depend on the processing

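With 22 alternatives, no interaction was called in any but 1: leaving out 1 array gave 0 to 1 calls (Ifitm3, without wild-type sham array C). The replicate block, which treats array letters as pairs, gave 0 calls (smallest adjusted p = 0.564), 621 kept rises, 268 kept falls, and 2 genes between genotypes after sham and 0 after I/R. With 1 array left out, genes at an unadjusted p under 0.05 numbered 300 to 528 (wild type larger) and 330 to 710 (TLR4-/- larger), kept rises 394 to 623, kept falls 198 to 329, risen genes 931 to 1282 in wild type and 658 to 1157 in TLR4-/-, fallen genes 413 to 772 and 312 to 731, genotype calls 0 to 10 after sham and 0 to 5 after I/R, and mitosis genes 6 to 13. Antiviral effectors numbered 12 to 18. Without wild-type sham C and TLR4-/- I/R D together the counts were 551 and 836, 5 mitosis genes, and 10 and 0 genotype calls. With genes above background only, the TLR4-/- larger count was 200 (12509 genes tested) and the I/R genotype count 1. Quantile normalisation gave 6 mitosis genes and 1 genotype call after I/R, array weights 2 and 7 genotype calls, and the trend and robust fit 2 after sham. The causes of these shifts, other than fewer genes or arrays, were not tested. Of the 58 named genes whose interval excluded 0, none changed sign in any setting. They were taken by their intervals on the same arrays, so this outcome was largely fixed in advance and does not support their signs. The other named genes changed sign in 106 gene and setting pairs of 5002 in all. List medians moved beyond the spread between arrays in 14 of 660 cases. Signals near the background level (4.67) limit what can be said of Zfp599 and Slfn1. Wild-type sham values of Ttk, Brca2, Spc24, Bub1 and Ch25h were also below that level, as were TLR4-/- sham values of Ttk and Fn1. Sham means of Saa3 were below it in both genotypes. The fold changes of these genes therefore start from signals in the background range and are limited in the same way.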
